A study of Homo sapiens and Mus musculus with 19 samples.

Results

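HepG2 and H1ES were compared at 170769 autosomal CCGG sites, which are 7.72% of the 2211146 autosomal CCGG sites listed for the human libraries. A site entered when each of the 4 libraries made from 1000 cells held at least 5 tags there. The 2 lines differ in origin: H1ES is an established human embryonic stem cell line, and HepG2 is an established liver cell line, labelled as hepatocellular carcinoma. Each line gave 2 libraries, with no treatment, genotype or time named. The DARESOME assay reads each CCGG site as one of 3 kinds of tag. HpaII cuts unmethylated sites, which take the first tag. The 2 MspI digests, with glucosylation of 5-hydroxymethylcytosine (5hmC) between them, are meant to give the tags for 5hmC and 5-methylcytosine (5mC). The deposited values carry no names, so the kinds of tag were assigned by column order. The labels' protocols also place the ligation of the 5hmC tag before glucosylation. What the 5hmC values below measure is therefore unsettled. The labels do not name separate cultures, so the spread between 2 libraries of a line, and each p-value, may reflect technical spread alone. The edgeR tests below found little such spread (common dispersion 0.0105 for sites and 9.77e-05 for gene starts). Their p-values therefore rest mostly on counts of tags. A lower share in a line cannot be told apart from a smaller fraction of its cells carrying the mark.

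DNA methyltransferases add 5mC to CpG dinucleotides, and TET enzymes oxidise 5mC to 5hmC. CpG-rich gene starts, called CpG islands, are usually free of methylation in most cells, while the bulk of the genome is methylated. Many cancer cell lines carry long blocks of reduced methylation between genes and across long genes, and gain methylation at CpG islands of developmental genes marked by Polycomb proteins.

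The libraries held 4911898 to 6644517 tags, and the compared sites took 25.9% to 29.0% of their autosomal tags, with a median of 7 to 9 tags at a site. The sites lay in gene bodies (89129), between genes (76025), within 1000 bp of a gene start (3885) and within 1000 bp of an end of a gene whose strand is not listed (1730). Crowded sites were rare: a site with 10 or more other CCGG sites within 500 bp entered in 0.472% of cases, against 11.8% of isolated sites. By chromosome, the share that entered ran from 5.78% on chromosome 21 to 14% on chromosome 20.

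The promoters below carry measured sites at gene starts that differed between the lines, with the measured CCGG in capitals. They are RefSeq sequences of GRCh38.p14, from 250 bases before to 50 after the start, printed 5′ to 3′ on the gene's strand. HNF4A (chr20:44355449-44355748, plus strand), the nuclear receptor that governs hepatocyte genes, and TMEM239 (chr20:2816052-2816351, plus strand), a transmembrane protein gene, are shown because they were methylated in H1ES and not in HepG2. IL20RA (chr6:137044916-137045215, minus strand), a subunit of the interleukin-20 receptor, RNF32 (chr7:156640524-156640823, plus strand), a RING finger protein gene, and NKX2-2 (chr20:21522640-21522939, minus strand), a homeobox factor of neural and pancreatic development, are shown for the opposite pattern.
HNF4A: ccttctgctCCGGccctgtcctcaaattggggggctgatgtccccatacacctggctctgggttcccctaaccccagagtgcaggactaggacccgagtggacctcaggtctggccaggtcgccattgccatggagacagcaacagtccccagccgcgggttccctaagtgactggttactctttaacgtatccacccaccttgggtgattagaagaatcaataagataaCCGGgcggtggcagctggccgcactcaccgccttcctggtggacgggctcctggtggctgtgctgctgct
TMEM239: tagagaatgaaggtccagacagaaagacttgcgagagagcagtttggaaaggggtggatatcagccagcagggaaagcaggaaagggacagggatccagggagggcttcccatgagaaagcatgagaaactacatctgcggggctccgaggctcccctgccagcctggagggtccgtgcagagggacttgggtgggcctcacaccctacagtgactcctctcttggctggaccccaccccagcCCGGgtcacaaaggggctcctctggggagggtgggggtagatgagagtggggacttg
IL20RA: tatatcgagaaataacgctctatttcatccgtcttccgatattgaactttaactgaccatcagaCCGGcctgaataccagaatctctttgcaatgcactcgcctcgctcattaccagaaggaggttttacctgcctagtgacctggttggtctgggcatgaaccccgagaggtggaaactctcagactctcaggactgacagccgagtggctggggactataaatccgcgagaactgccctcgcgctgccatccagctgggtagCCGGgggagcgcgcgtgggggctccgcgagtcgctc
RNF32: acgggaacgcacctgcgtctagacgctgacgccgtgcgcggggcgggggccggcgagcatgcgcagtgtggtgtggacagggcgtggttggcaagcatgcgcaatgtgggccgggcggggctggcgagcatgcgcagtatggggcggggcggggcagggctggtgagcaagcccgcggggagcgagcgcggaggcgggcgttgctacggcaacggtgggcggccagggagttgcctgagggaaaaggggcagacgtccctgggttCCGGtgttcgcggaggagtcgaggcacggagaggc
NKX2-2: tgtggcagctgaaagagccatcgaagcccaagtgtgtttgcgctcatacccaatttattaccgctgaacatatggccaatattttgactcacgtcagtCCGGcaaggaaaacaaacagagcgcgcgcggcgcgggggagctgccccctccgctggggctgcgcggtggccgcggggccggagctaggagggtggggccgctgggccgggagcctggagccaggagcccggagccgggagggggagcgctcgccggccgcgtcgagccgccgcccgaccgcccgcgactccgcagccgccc

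In the HNF4A promoter, the site at -240 from the start gave 0 unmethylated of 12 and 0 of 13 tags in H1ES, against 17 of 19 and 12 of 12 in HepG2. Its site at -19 gave 0 of 10 and 0 of 5 against 14 of 16 and 20 of 20. The lines did not overlap at either site, and both passed edgeR's test over all sites (adjusted p = 7.60e-05 and 1.05e-04). At TMEM239, the site at -6 gave 1 of 15 and 0 of 7 unmethylated tags in H1ES, and 21 of 23 and 13 of 15 in HepG2 (edgeR adjusted p = 9.81e-05).

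The other 3 promoters went the opposite way. In IL20RA, the site 16 bases after the start gave 12 of 17 and 5 of 7 unmethylated tags in H1ES, and 0 of 12 and 0 of 5 in HepG2 (edgeR adjusted p = 9.07e-04). Its site at -184 gave 7 of 8 and 5 of 7 against 1 of 15 and 0 of 19 (edgeR adjusted p = 3.80e-04). The RNF32 site, 16 bases after the start, gave 10 of 10 and 11 of 11 against 0 of 16 and 0 of 5 (edgeR adjusted p = 7.78e-05). HepG2 gave no unmethylated tag at the IL20RA site after the start or at the RNF32 site, and 0 of 21 tags at RNF32 allows a share of up to 14.3%. At NKX2-2, the site at -150 was only partly methylated in HepG2: 7 of 7 and 5 of 5 tags were unmethylated in H1ES, against 5 of 13 and 8 of 12 (edgeR adjusted p = 0.0243). The HNF4A and TMEM239 promoters hold 11 and 5 CG dinucleotides in these 300 bases, whereas IL20RA, RNF32 and NKX2-2 hold 20, 36 and 35. Other examined promoters with a called site did not all follow this split. NKX2-1 and PAX6, each with a site lower in HepG2, hold 11, and DPPA5, with a site higher, holds 20. RBFOX3, ZBTB38 and LILRB3, each with a site higher, hold 8, 2 and 9.

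Over all compared sites, unmethylated tags made up 3.10% and 2.99% in the H1ES libraries, and 35.6% and 34.9% in the HepG2 libraries. The difference of the line means was 32.2 percentage points, far above the spread between libraries of a line (SD 0.0746 in H1ES and 0.445 in HepG2, n = 2 each). Tags assigned as hydroxymethylated, an assignment that is unsettled, ran the other way, with 1.65% and 1.5% in H1ES and 0.221% and 0.270% in HepG2. With 2 libraries against 2, an exact two-sided permutation test cannot go below p = 0.33, which it gave for these shares.

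Single sites were spread differently in the 2 lines. In H1ES, 94.3% of sites had a mean unmethylated share under 10%, and 1.12% had 90% or more. In HepG2, 43.3% of sites were under 10% and 15.9% at 90% or more, and the rest were spread over all levels between. In HepG2 one large group of sites was thus methylated and another close to free of methylation.

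**Figure D1:**
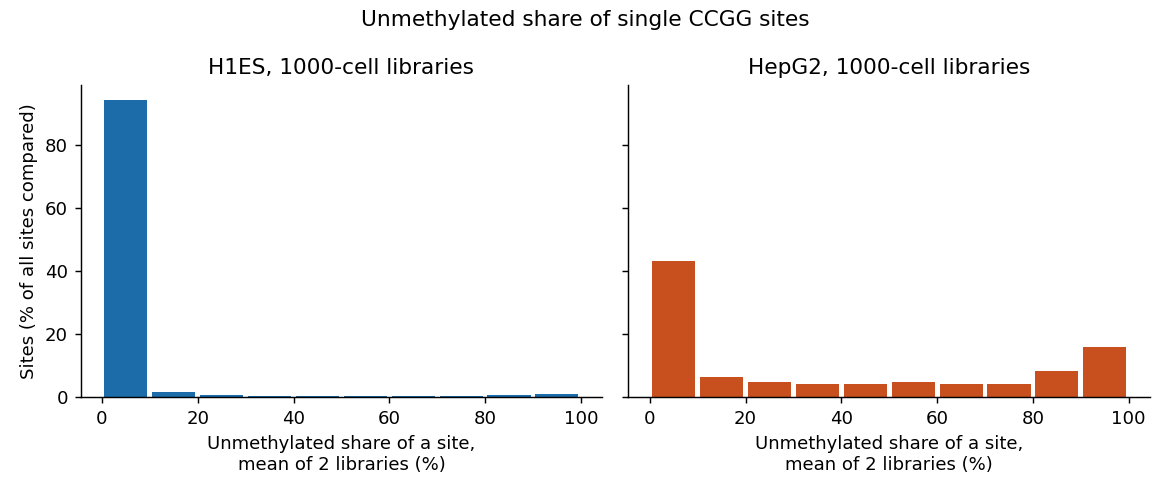
Histograms of the mean unmethylated share of single CCGG sites (x axis, %) as a percent of the 170769 sites compared (y axis), for H1ES and HepG2 with 2 libraries each. H1ES has 94.3% of sites in its lowest bar, while HepG2 has 43.3% there and 15.9% in its highest.

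The difference between the lines varied with location. Between genes, unmethylated tags made up 2.43% and 2.3% in H1ES and 48.0% and 47.2% in HepG2. In gene bodies the values were 1.91% and 1.87% against 24.0% and 23.6%. At gene starts they were 38.5% and 38.7% against 59.4% and 58.1%, so HepG2 was higher in all 3 places, by 45.2, 21.9 and 20.1 points. At gene starts crowded with 10 or more other CCGG sites, as CpG islands are, the lines overlapped, with 82.9% and 82.3% in H1ES and 81.7% and 82.4% in HepG2 (exact permutation p = 0.667). At starts with no other CCGG site within 500 bp they were 8.80% and 9.36% against 44.0% and 42.8%.

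Long genes stood apart in HepG2. In genes over 300 kb, HepG2 had 39.4% and 38.9% unmethylated tags in the body, against 1.46% and 1.41% in H1ES. In shorter genes the HepG2 libraries lay between 16.2% and 20.9%, and the H1ES libraries between 1.56% and 3.50%. Along genes of known strand, the HepG2 share went from 25.9% and 25.5% in the fifth of the gene nearest the start to 21.1% and 20.8% in the fifth at the far end. Among chromosomes, the mean HepG2 share was 28.9% ± 0.376 (SD, n = 2) on chromosome 19 and 39.6% ± 0.512 on chromosome 20, the lowest and the highest of the 22 autosomes.

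**Figure D2:**
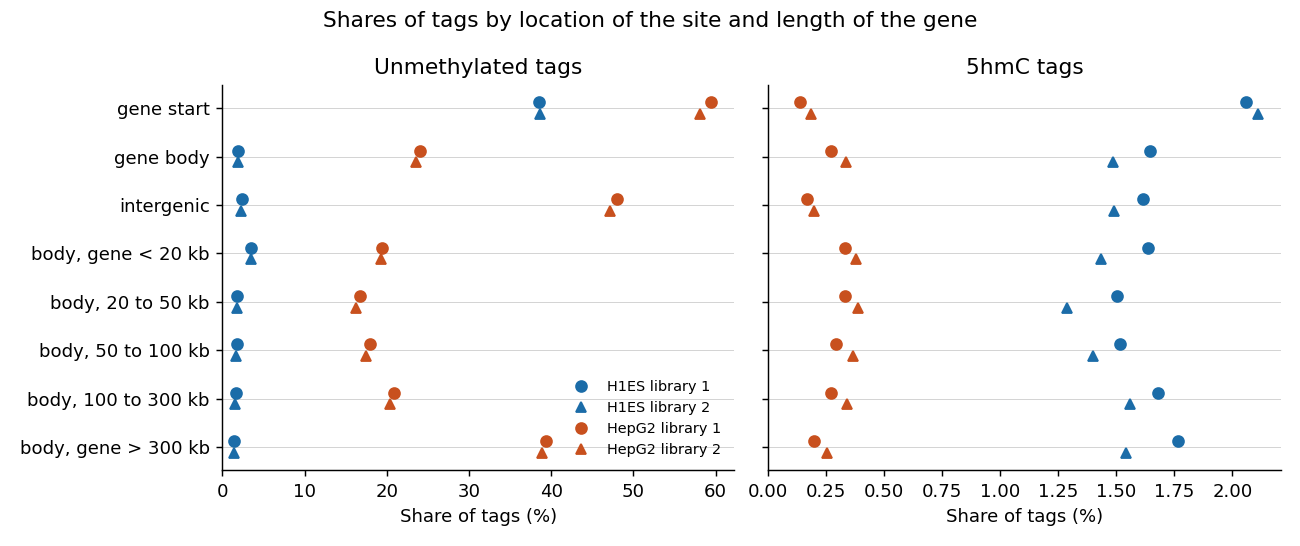
Share of unmethylated tags (left, %) and of 5hmC tags (right, %) in each library by location of the site and, for gene bodies, by gene length. The 5hmC tags were assigned by column order, and their meaning is unsettled. The HepG2 points for unmethylated tags lie at 58.1% and 59.4% at gene starts, 47.2% and 48.0% between genes and 38.9% and 39.4% in genes over 300 kb, while H1ES points for 5hmC lie above the HepG2 points in each row.

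The 2 sides of the gene start differed in HepG2. At 3000 to 5000 bp before the start, 33.2% and 32.2% of HepG2 tags were unmethylated, and at 3000 to 5000 bp after it 20.7% and 20.2%. H1ES had 3.54% and 3.17% before and 3.30% and 3.38% after. Both lines peaked at the start, with 58.6% and 59.2% in H1ES and 70.7% and 70.0% in HepG2 in the last 250 bp before it.

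As a share of all tags, 5hmC as assigned by column order followed another profile around gene starts. In H1ES it was 1.60% and 1.32% in the first 250 bp after the start, and 2.54% and 2.44% at 500 to 750 bp before it. On the other side, 750 to 1000 bp after the start, it was 2.25% and 2.94%. Both flanks lay above the first 250 bp in both H1ES libraries, where unmethylated tags were also most frequent. As a share of modified tags only (5mC and 5hmC), no such dip was present: 5hmC was 4.12% and 5.02% in the last 250 bp before the start and 3.70% and 3.03% in the first 250 bp after it. The flanks had 3.23% and 3.11% before and 3% and 3.93% after on this measure, and sites beyond 20 kb from any listed start had 1.68% and 1.52%. In HepG2 the share of all tags stayed between 0.0382% and 0.518% at every distance examined.

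**Figure D3:**
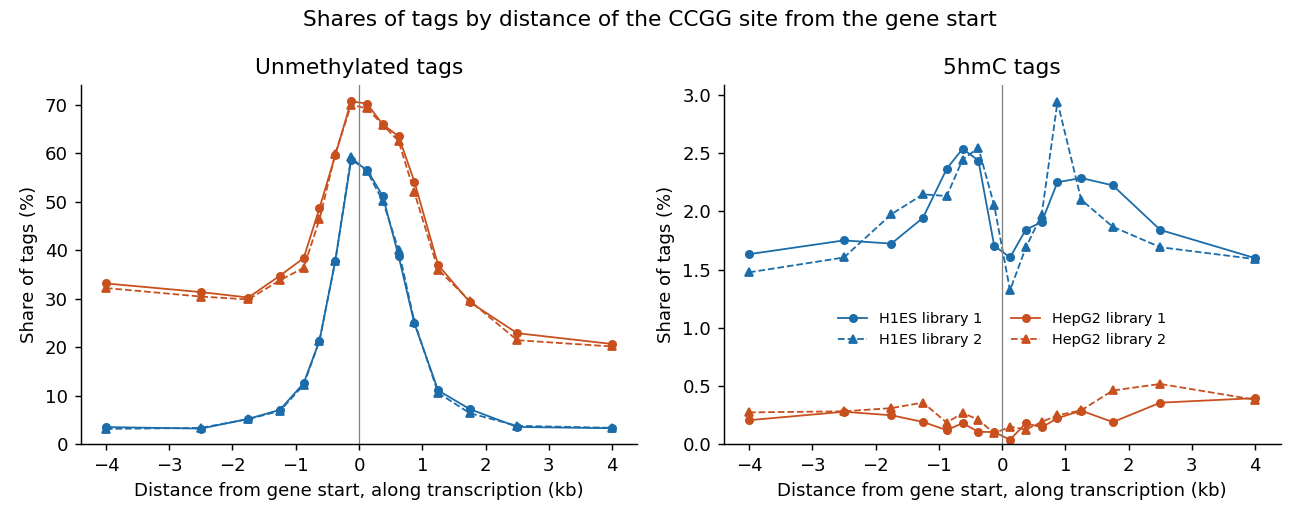
Share of unmethylated tags (left, %) and of 5hmC tags (right, %) by distance of the site from the gene start in kb, negative before the start, with a line for each of the 4 libraries. The 5hmC tags were assigned by column order, and their meaning is unsettled. Unmethylated tags peak at the start in both lines, and 5hmC in H1ES, drawn as a share of all tags, is lower at the start than on its flanks, which it is not as a share of modified tags.

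Sites were also sorted into states, unmethylated or methylated (5mC and 5hmC together) where at least 80% of tags in both libraries of a line were of that kind, and mixed otherwise. Of 162852 sites methylated in H1ES, 79198 were methylated in HepG2, 52924 mixed and 30730, or 18.9%, unmethylated. Of 2418 sites unmethylated in H1ES, 1538 were unmethylated in HepG2 and 261, or 10.8%, methylated. Sites unmethylated in H1ES had that state in HepG2 too in 75.1% of cases at gene starts, 53.1% between genes and 45.0% in gene bodies. Sites methylated in H1ES were unmethylated in HepG2 in 26.7% of cases between genes, 19.2% at gene starts and 12.3% in gene bodies.

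Neighbouring sites resembled each other over different ranges. For sites 100 to 200 bp apart, the correlation of their mean unmethylated shares was r = 0.870 in H1ES and 0.670 in HepG2 (1340 pairs). For sites 10 to 50 kb apart it was 0.035 in H1ES and 0.415 in HepG2 (56261 pairs). The pairs share libraries and, when close, DNA fragments, so these are descriptions. Of HepG2 sites that followed an unmethylated site at 10 to 50 kb, 37.9% were unmethylated too, against 20.2% of all sites. In H1ES the same figure was 2.67%, against 1.42% of all sites. At this distance both lines were thus above their rate over all sites. Since 94.3% of H1ES sites had a mean unmethylated share under 10%, r alone does not give the range of resemblance in each line.

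Tested site by site with edgeR (adjusted p under 0.05), 69064 sites had a higher unmethylated share in HepG2 (40.4% of those tested) and 884 a lower one (0.518%). The libraries of the lines did not overlap at 90517 sites (53%). Measured against the overall odds of each library, 900 sites were higher (0.527%) and 1897 lower (1.11%). The median difference went from 3.51 to 2.3 in log2 odds, but unevenly. At chr21:10417691, with unmethylated tags in both H1ES libraries, the difference went from 7.29 to 3.23. At chr11:94234620, with none in H1ES, it went from 13.7 to 13.1. The median of 2.3 therefore does not give a typical site's excess over the library odds. Without HepG2 library 1 the counts were 39288 higher and 294 lower, and without HepG2 library 2 they were 42953 and 326. DESeq2 called no site, with 20697 at an unadjusted p under 0.05, and edgeR without robust estimation called none either, with 71107. Fisher's exact test on tags summed by line, which ignores the spread between libraries, called 71532 sites higher. Among them were 99.9% of the higher sites of edgeR.

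The 2 kinds of site lay in different places. Higher sites made up 56.3% of sites between genes, 27.7% in gene bodies and 26.4% at gene starts. Lower sites made up 3.29% at gene starts, 0.504% in gene bodies and 0.346% between genes, so gene starts held 14.5% of the lower sites and 2.28% of all sites. With CCGG density, the percent of lower sites went from 0.199% among isolated sites to 7.52% among sites with 10 or more neighbours within 500 bp, while the percent of higher sites went from 46.5% to 10.5%. None of the 162852 sites methylated in H1ES was called lower, so these percentages also depend on how many sites H1ES had unmethylated in each class. Among sites unmethylated in H1ES, gene starts had the lowest percentage: 4% were methylated in HepG2 at gene starts (46 of 1150), 23.4% in gene bodies (121 of 516) and 13.9% between genes (76 of 546). By density, 11.2% of the isolated ones (21 of 188) and 7.03% of those with 10 or more neighbours (37 of 526) were methylated in HepG2. The median lower site had 82.9% unmethylated tags in H1ES and 0% in HepG2, and the median higher site 0% and 82.9%.

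The 5 higher sites with the smallest p all lay between genes. At chr21:10385932 the unmethylated tags were 0 of 39 and 1 of 44 in H1ES, and 37 of 38 and 35 of 36 in HepG2 (edgeR adjusted p = 6.14e-08). At chr11:94234620 they were 0 of 59 and 0 of 56 against 13 of 14 and 22 of 22 (edgeR adjusted p = 4.58e-07), and a close neighbour, chr11:94235004, gave 0 of 52 and 0 of 33 against 24 of 26 and 21 of 23. The libraries of the lines were far apart at all 5, which also include chr21:10417691 and chr16:80088553. The H1ES zeros at chr11:94234620 rest on 115 tags, which allow a share of up to 2.61%.

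Of the 5 lower sites with the smallest p, 3 lay at gene starts, of HAS3, L1TD1 and RNF32. At HAS3, which encodes a hyaluronan synthase, the site chr16:69107004, at -536 from the start, gave 7 of 7 and 12 of 12 unmethylated tags in H1ES and 0 of 16 and 1 of 18 in HepG2 (edgeR adjusted p = 7.60e-05). The other 2 lay between genes, with 7 and 9 other CCGG sites within 500 bp. At chr5:135027658 the tags were 12 of 12 and 6 of 6 against 0 of 16 and 0 of 15, and at chr16:30206029 they were 20 of 20 and 10 of 10 against 5 of 26 and 5 of 25. HepG2 thus had unmethylated tags in both libraries at the latter. None of the 10 sites was called by DESeq2 (adjusted p = 0.373 for each).

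For gene starts, the tags of all compared sites within 1000 bp of a start were summed, and 636 starts held at least 10 tags in every library. edgeR called 274 higher in HepG2 (43.1%) and 27 lower (4.25%), and the libraries did not overlap at 436 (68.6%). The median higher start had 3.13% unmethylated tags in H1ES and 68.7% in HepG2. The median lower start had 78.3% and 28.2%. Relative to the overall odds of each library, which lowers the median difference from 2.11 to 0.95 in log2 odds, 180 were higher (28.3%) and 64 lower (10.1%). The counts were 133 and 9 without H1ES library 1, 172 and 14 without H1ES library 2, and 156 and 9 with DESeq2.

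**Figure D4:**
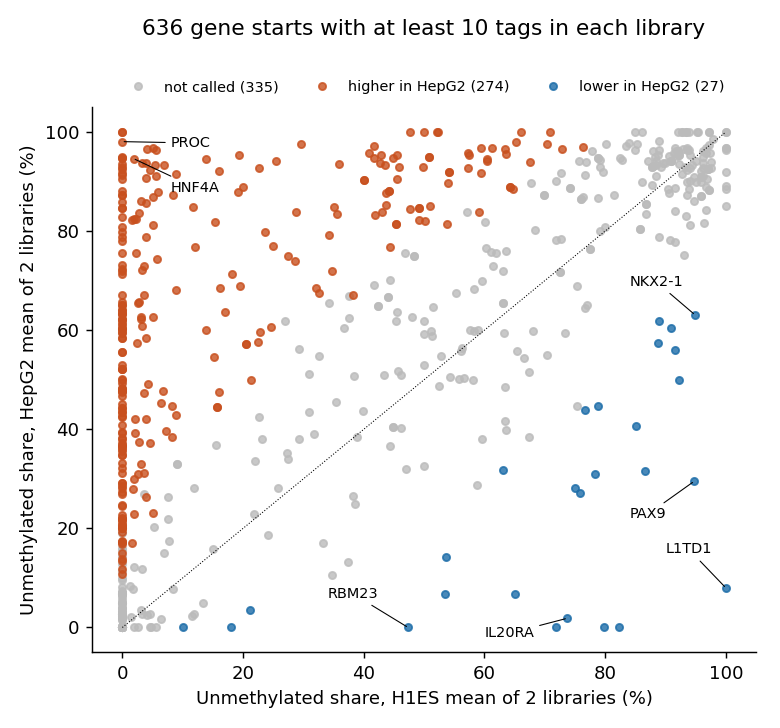
Mean unmethylated share of 636 gene starts in H1ES (x axis, %) and HepG2 (y axis, %), each a mean of 2 libraries, with the line of equal shares dotted. The 274 starts called higher in HepG2 crowd along the left edge, and the 27 called lower spread over the lower right.

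Promoter sequence differed between the called groups as a description. The median ratio of observed to expected CpG was 0.452 in the promoters of starts higher in HepG2, 0.844 in those lower and 0.791 in those not called, against 0.578 over 33558 autosomal RefSeq promoters. A CCGG was present in 73.4%, 92.6%, 85.1% and 63.1% of them, on either strand, since CCGG reads the same on both. The starts tested needed a measured CCGG within 1000 bp, which all promoters did not. The called groups also differed in H1ES, with a median unmethylated share of 3.13% at higher starts and 78.3% at lower ones. Promoters of like H1ES state were not compared, so these ratios cannot be tied to the difference between the lines.

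The starts with the largest gains of unmethylated share included 2 liver genes. PROC (chr2:127418427), encoding the anticoagulant protein C that the liver secretes, had 0 of 22 and 0 of 19 unmethylated tags in H1ES, and 21 of 21 and 25 of 26 in HepG2 (edgeR adjusted p = 1.76e-05). The first start of HNF4A (chr20:44355699), with the promoter printed above, had 0 of 32 and 1 of 27 against 42 of 46 and 49 of 50 (edgeR adjusted p = 6.45e-06). Both were near 0% in H1ES and above 90% in every HepG2 library. The 0 of 41 H1ES tags at PROC allow a share of up to 7.32%.

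The other large gains fell in genes of varied tissues. MT4 (chr16:56565073), a metallothionein, went from 4.17% ± 5.89 in H1ES to 96.6% ± 1.04 in HepG2 (SD, n = 2), and PDZK1 (chr1:145707400), a scaffold of membrane transporters, from 5.00% ± 7.07 to 86.8% ± 5.76. Among immune receptors, LILRB3 (chr19:54223007), an inhibitory receptor of leukocytes, had 1 of 36 and 2 of 24 unmethylated tags in H1ES and 26 of 28 and 17 of 17 in HepG2. SIGLEC7 (chr19:51142459), an inhibitory receptor of natural killer cells that binds sialic acid, had 0 of 30 and 0 of 24 against 19 of 24 and 18 of 20. A call and no overlap between the lines were conditions for naming these 4 starts (edgeR adjusted p between 1.76e-05 and 5.09e-05).

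Genes of muscle, olfactory and epithelial families were among them. MYLK3 (chr16:46748344), a myosin light chain kinase of the heart, had 0 of 21 and 0 of 15 unmethylated tags in H1ES at the second of its listed starts, and 26 of 29 and 19 of 22 in HepG2. OR5M11 (chr11:56543257), an olfactory receptor, had 0 of 31 and 0 of 17 against 16 of 18 and 12 of 14. BPIFB6 (chr20:33031648), of a family of lipid-binding proteins, had 1 of 16 and 1 of 21 against 29 of 30 and 30 of 35. A call was again a condition for naming them (edgeR adjusted p = 2.81e-05 for each). TMEM239, picked by the same rule, had 13.8% ± 8.70 in H1ES and 94.6% ± 1.55 in HepG2 (SD, n = 2).

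Only 9 starts met the rule for the largest losses, which asked for a mean of at least 20 tags and no overlap. IL20RA (chr6:137044965) had 19 of 25 and 10 of 14 unmethylated tags in H1ES, and 1 of 27 and 0 of 24 in HepG2 (edgeR adjusted p = 5.09e-05). PAX9 (chr14:36661860), a paired-box factor of tooth and thymus development, had 17 of 19 and 12 of 12 against 9 of 39 and 14 of 39 at the second of its listed starts (edgeR adjusted p = 2.10e-04). IL20RA was almost fully methylated in HepG2, while PAX9 had 29.5% ± 9.07 unmethylated tags (SD, n = 2).

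A further 2 starts were about equally divided between kinds of tag in H1ES and methylated in HepG2. RBM23 (chr14:22919149), an RNA-binding protein gene, had 5 of 13 and 9 of 16 unmethylated tags in H1ES and 0 of 40 and 0 of 43 in HepG2 (edgeR adjusted p = 1.49e-04). SPATA32 (chr17:45262094), named for its link to spermatogenesis, had 13 of 30 and 7 of 11 against 2 of 22 and 1 of 23 (edgeR adjusted p = 0.00203). The H1ES libraries of both lay above both HepG2 libraries, which the rule for naming them required.

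The remaining losses were less secure. NKX2-1 (chr14:36520232), a homeobox factor of lung and thyroid, had 94.9% ± 1.09 in H1ES and 63.1% ± 2.24 in HepG2 (edgeR adjusted p = 0.0035), and YPEL3 (chr16:30096213) had 75.9% ± 10.5 and 27.1% ± 13.1 (adjusted p = 0.00383). ASPRV1 (chr2:70087375), a skin protease gene that shares its window with PCBP1, had 89.0% ± 4.66 and 61.8% ± 8.24 (edgeR adjusted p = 0.0155). ABAT (chr16:8712837), the enzyme that breaks down the transmitter GABA, had 10% ± 2.43 and 0% of 73 tags, and C3orf62 (chr3:49277232) had 21.2% ± 6.40 and 3.57% ± 5.05. Their SDs are over 2 libraries, and the edgeR adjusted p was 0.0333 for ABAT and 0.0431 for C3orf62. All 5 calls were lost without H1ES library 1 (edgeR adjusted p = 0.0783 for NKX2-1, 0.069 for YPEL3, 0.173 for ASPRV1, 0.204 for ABAT and 0.30 for C3orf62). Without H1ES library 2 those of YPEL3, ASPRV1, ABAT and C3orf62 were lost (0.0846, 0.0717, 0.12 and 0.111), without HepG2 library 1 that of ABAT (0.106), and without HepG2 library 2 those of ASPRV1, ABAT and C3orf62 (0.0633, 0.0756 and 0.179), in the same edgeR fit. DESeq2 called none of the 5.

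**Figure D5:**
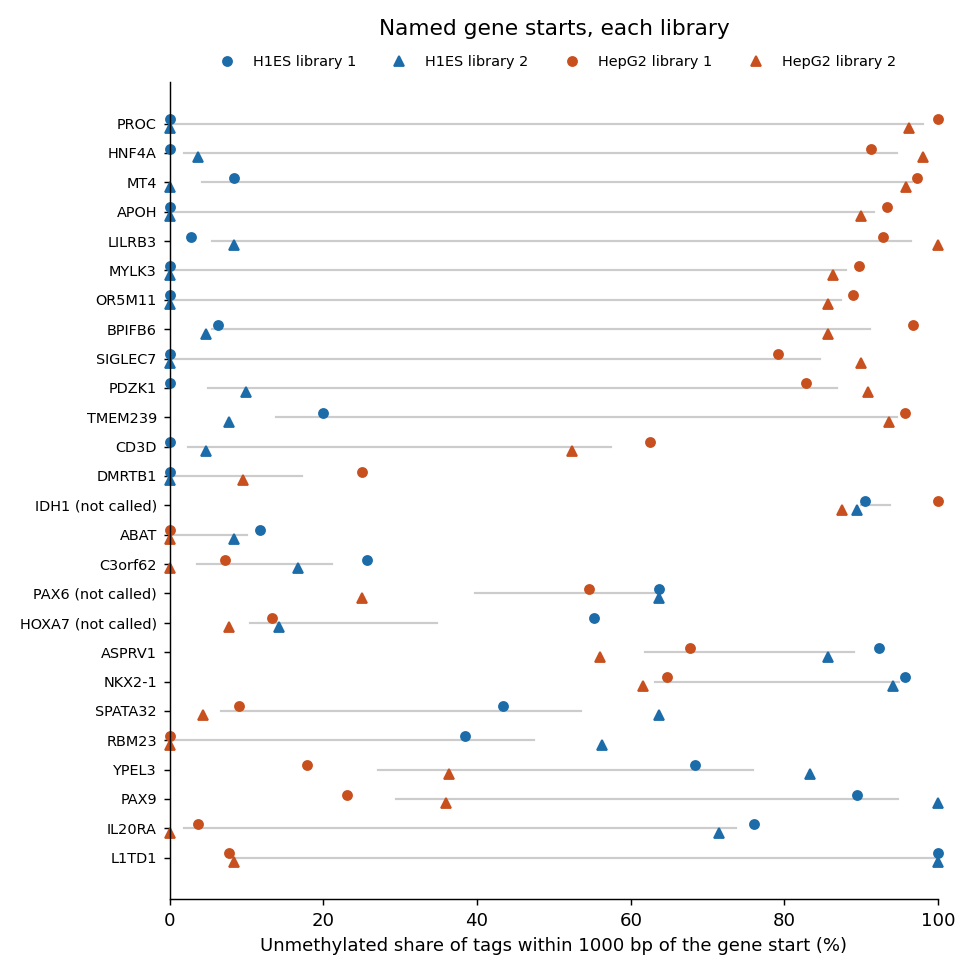
Unmethylated share of tags (x axis, %) within 1000 bp of 26 named gene starts, one point for each of the 4 libraries, with a grey line between the line means. Starts run from the largest gain in HepG2 (PROC, top) to the largest loss (L1TD1, bottom), and 3 starts that were not called are marked.

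Lists of genes were read at starts with at least 5 tags in every library, since few members reached 10. At that level 3509 starts were tested, and edgeR called 914 higher (26%) and 110 lower (3.13%). Many of these starts rest on a single site of 5 to 15 tags. DESeq2 called none at this level, with 817 at an unadjusted p under 0.05. Without H1ES library 1, edgeR called 507 higher and 62 lower; without H1ES library 2, 621 and 70; without HepG2 library 1, 641 and 70.

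Of the hepatocyte factors and plasma proteins, 7 of 40 genes had a measured start, and 6 were higher in HepG2 and none lower. The median difference of the 7 was 86.2 points, against 8.33 over all starts tested. Their median H1ES share was 0%, against 29.2% over all starts tested, so they had little room to fall. Of all starts with no unmethylated tag in H1ES, 520 were called higher and 687 were not called. APOH, a plasma glycoprotein that binds phospholipids, had 0 of 13 and 0 of 13 unmethylated tags in H1ES and 14 of 15 and 18 of 20 in HepG2 (edgeR adjusted p = 1.21e-07). ITIH3, a heavy chain of a plasma protease inhibitor, had 0 of 17 and 0 of 8 against 12 of 13 and 6 of 6 (edgeR adjusted p = 1.67e-06). NR1I2, the xenobiotic receptor PXR, had 1 of 13 and 1 of 5 against 6 of 6 and 7 of 7 (edgeR adjusted p = 2.18e-04).

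HPX, the haem carrier of plasma, and APOA5, an apolipoprotein of triglyceride metabolism, were also higher, at 77.1% ± 14.7 and 92.9% ± 10.1 in HepG2 against 0% of 22 tags and 11% ± 4.66 in H1ES (SD, n = 2). With HNF4A, all 6 stayed called whichever library was left out. The exception was the first start of SERPINA1, the gene of α1-antitrypsin, with 0 of 15 and 0 of 11 unmethylated tags in H1ES and 0 of 6 and 1 of 14 in HepG2 (edgeR adjusted p = 0.547). ALB and AFP had no compared site at their start.

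Of the liver enzymes and transporters, 5 starts were measured and 2 were higher in HepG2, where 26% of all starts tested were higher. CYP27A1, a sterol hydroxylase of bile acid synthesis, had 12.9% ± 5.36 in H1ES and 93.8% ± 8.84 in HepG2, and ADH1B, an alcohol dehydrogenase, 8.33% ± 11.8 and 90% ± 14.1 (SD, n = 2, edgeR adjusted p = 0.00185 and 0.00932). The start of CYP3A4, a major drug-metabolising enzyme, gave no unmethylated tag in any library, of 8 and 13 in H1ES and 11 and 11 in HepG2. ARG1, the arginase of the urea cycle, gave none either, of 7 and 5 and of 17 and 6. CYP2C8 gave 1 unmethylated tag in all, in HepG2. The CYP27A1 call was lost without H1ES library 2 (edgeR adjusted p = 0.0613), and the ADH1B call without that library or HepG2 library 1 (0.0981 and 0.114).

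Of the pluripotency genes, 4 of 22 had a measured start, with 2 lower and 1 higher in HepG2. Over all starts tested, 3.13% were lower and 26% higher. L1TD1 (chr1:62194849), an RNA-binding protein of embryonic stem cells, had 14 of 14 and 13 of 13 unmethylated tags in H1ES and 1 of 13 and 1 of 12 in HepG2 (edgeR adjusted p = 4.91e-07). NANOG, a core pluripotency factor, had 6 of 6 and 5 of 6 against 0 of 5 and 1 of 5 (edgeR adjusted p = 0.00708), and its call was lost without H1ES library 1 or HepG2 library 1 (0.11 and 0.0987). DPPA5 went the other way, with 0 of 9 and 0 of 10 unmethylated tags in H1ES and 7 of 11 and 3 of 5 in HepG2 (edgeR adjusted p = 0.00257, or 0.0516 without HepG2 library 1). LIN28B, an inhibitor of let-7 maturation, was largely unmethylated in both lines, at 92.9% ± 10.1 and 85.4% ± 2.95 (SD, n = 2). No start is listed for POU5F1.

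Of the homeobox genes and Polycomb targets, 15 starts of 14 genes were measured, with 5 lower in HepG2 and none higher, and a median difference of -24.2 points. Over all starts tested, 3.13% were lower and 26% higher, with a median difference of 8.33 points. The median H1ES share was 83.3% on this list, against 29.2% over all starts tested, so it had more room to fall. HOXA13 and PAX2 rose without a call, from 78.6% ± 10.1 in H1ES to 100% in HepG2 and from 80% ± 28.3 to 85.7% ± 20.2 (SD, n = 2). Besides PAX9 and NKX2-1 the lower starts were the first start of NKX2-2, TBX4, a T-box factor of the hind limb, and HOXA11. The second start of NKX2-2 was not called, at 92.9% ± 10.1 in H1ES and 85.0% ± 7.07 in HepG2. TBX4 had 3 of 9 and 5 of 6 unmethylated tags in H1ES and 0 of 12 and 0 of 8 in HepG2, and HOXA11 had 2 of 5 and 3 of 5 against 0 of 10 and 0 of 6 (edgeR adjusted p = 0.0071 and 0.0301). Only PAX9 stayed called whichever library was left out. TFAP2A had 92.0% ± 0.453 in HepG2 against 100% of its 21 H1ES tags, and HOXA3 gave no unmethylated tag in any library.

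Calls of these 4 were lost under several omissions, given as edgeR adjusted p. Without H1ES library 1 they were 0.183 for NKX2-1, 0.244 for NKX2-2 and 0.079 for HOXA11, and without H1ES library 2 they were 0.0801, 0.145 and 0.186. TBX4 was lost without H1ES library 2 (0.137) or HepG2 library 1 (0.0932). Without HepG2 library 1, NKX2-2 gave 0.189 and HOXA11 0.203, and without HepG2 library 2 HOXA11 gave 0.0953. HOXA7 was not called, with 16 of 29 and 2 of 14 in H1ES against 2 of 15 and 1 of 13, its H1ES libraries standing far apart, and was called lower without H1ES library 2 (0.0471). PAX6 was not called over its window either, at 63.6% in both H1ES libraries and 54.5% and 25.0% in HepG2.

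Lists of other tissues were measured at few starts, where 26% of all starts tested were higher and 3.13% lower. Of the blood genes both measured starts were higher in HepG2: CD3D, a chain of the T cell receptor complex, had 0 of 21 and 1 of 21 unmethylated tags in H1ES and 10 of 16 and 11 of 21 in HepG2 (edgeR adjusted p = 1.24e-04), and LCP1, an actin-bundling protein of leukocytes, had 0% of 12 tags and 63.3% ± 4.71 (0.0109). Of the neural genes, 2 starts of RBFOX3, the gene of the neuronal antigen NeuN, were higher, and SOX1, a neural progenitor factor, was lower. The starts of RBFOX3 had no unmethylated tag in H1ES and 100% of 18 tags, or 76.2% ± 13.5, in HepG2. SOX1 had 6 of 6 and 5 of 5 unmethylated tags in H1ES and 0 of 9 and 0 of 6 in HepG2 (edgeR adjusted p = 5.91e-05).

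Of the germline and cancer-testis genes, 1 of 5 starts was higher, where 26% of all starts tested were higher. It was that of DDX4, a helicase of germ cells, with 0 of 7 and 0 of 8 unmethylated tags against 15 of 17 and 5 of 5 (edgeR adjusted p = 3.69e-05). DAZL gave none in either line. At 10 tags DMRTB1 was also called, with 0% of 33 tags in H1ES and 25.0% and 9.52% in HepG2 (edgeR adjusted p = 0.0383), but not without H1ES library 1 (0.197), H1ES library 2 (0.165) or HepG2 library 1 (0.147), nor at 5 tags (0.0806). Of 3 starts of genes known to be methylated in liver cancer, the first start of RUNX3 was higher in HepG2, at 55.0% ± 7.07 against 0% of 18 tags in H1ES (edgeR adjusted p = 0.0138). CDKN2A, the locus of the p16 inhibitor of the cell cycle, had 80% in both H1ES libraries and 100% and 88.9% in HepG2, and was not called.

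Among 8 starts of 5 imprinted genes only the second start of MEST was called, lower in HepG2. Over all starts tested, 3.13% were lower and 26% higher. MEST had 4 of 7 and 4 of 9 unmethylated tags in H1ES and 0 of 7 and 0 of 10 in HepG2 (edgeR adjusted p = 0.014). SNRPN was mixed in both lines, at 54.8% ± 16.8 and 71.7% ± 16.5 (SD, n = 2). Of 5 starts of genes of the DNA modification machinery, ZBTB38, a zinc finger protein that binds methylated DNA, was higher in HepG2 at its second start, and TET3, which oxidises 5mC, lower at its second start. ZBTB38 had 0 of 20 and 0 of 12 unmethylated tags in H1ES, where 4 and 2 tags were 5hmC, and 6 of 11 and 3 of 8 in HepG2 (edgeR adjusted p = 0.00227). TET3 had 5 of 10 and 5 of 5 against 1 of 17 and 6 of 20 (edgeR adjusted p = 0.0404). None of the 3 measured housekeeping starts was called.

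Several of these calls were lost when a library was left out, given as edgeR adjusted p. Without H1ES library 1 they were 0.185 for RUNX3, 0.11 for LCP1, 0.0777 for the weaker start of RBFOX3, 0.0749 for ZBTB38 and 0.0912 for MEST. Without H1ES library 2 they were 0.0613 for RUNX3, 0.0978 for LCP1 and 0.405 for TET3, and without HepG2 library 1 they were 0.0548, 0.09 and 0.284. That omission also gave 0.06 for ZBTB38 and 0.0735 for MEST. Without HepG2 library 2, RUNX3 gave 0.0709 and MEST 0.129.

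The lines' labels were checked against defining markers by the state of their starts, as no RNA was measured. The starts of 2 of 8 embryonic stem cell markers were measured, at 91.7% and 100% unmethylated tags in H1ES and 10% and 8.01% in HepG2. Of 11 hepatocyte markers 3 were measured. APOH and the first of the 2 listed starts of HNF4A were 0% and 1.85% in H1ES and 91.7% and 94.7% in HepG2. The first start of SERPINA1 was methylated in both lines. The second listed starts of HNF4A and SERPINA1 were not measured. The blood marker CD3D and the neural marker RBFOX3 were also higher in HepG2, and the neural marker SOX1 was lower; of 6 markers in each of these lists 1 and 2 genes were measured, and their part in the results was not tested.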

How the data were processed

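DNA of 1000 cells was assayed in 2 libraries of H1ES and 2 of HepG2. The submitters' processing notes name hg38, Bowtie2 2.3.4.1, UMI-tools 0.5.4 and cutadapt 1.5; the settings are not given in the sources used here. The deposited tables list for each CCGG site 3 values in the unit fraction (unmethylated, 5mC and 5hmC, which sum to 1) and the deposited count of tags. They have no header, so the kinds were assigned by column order, and every 5hmC value rests on this. The labels' protocols also place the ligation of the 5hmC tag before the glucosylation step, which leaves the meaning of the 5hmC column unsettled here. Fraction times count was whole within 0.00141. All 71749 CCGG of the RefSeq promoters on autosomes were listed at their GRCh38.p14 position, on the inner C, which is the position printed.

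The members and gene lists were chosen with earlier results of these data known. Gene starts came from the RefSeq promoter table, which gives a strand to 15101 of 19126 autosomal protein-coding genes. A window reached 1000 bp to each side of a start, with overlapping windows of a gene merged, which gave 17580 windows. Sites within 1000 bp of an end of a gene with no strand were kept apart. Unmethylated tags were tested against 5mC and 5hmC tags with edgeR 4.0.16 (R 4.3.3; quasi-likelihood, 1 term per library, Benjamini-Hochberg over all sites or starts, threshold 0.05). Robust estimation of the prior was chosen after simulated data and after the fit without it had called no site. On simulated data, edgeR recovered 0.65% of sites changed 4-fold and 24.2% changed 32-fold in odds, with 7 false calls, and 18% and 82% of gene starts, with 1 false call. The simulated tags carried binomial counting error only, with no spread between libraries of a line. Those false calls therefore do not give the error rate in these data. Shares were compared with exact permutation tests (SciPy 1.17.1, Python 3.11.15). Alternatives used DESeq2 1.42.0, limma 3.58.1 on logit shares with a pseudocount of 0.5, Fisher's exact test, other tag minimums and windows, a replicate block and each library left out. Limits for a share of 0 are 3 counts over the total and, like all shares, cover counting error only.

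Genes were named by a rule: called starts without overlap whose mean tag number was 20 or more, taking 10 by gain and 10 by loss in points; from each list, at 10 tags, the 4 lowest p; POU5F1, NANOG, ALB, AFP and HNF4A in any case; and the 5 sites with the smallest p in each direction, leaving out sites over 10 times the median tag number. List members at 5 tags and the promoters shown were chosen after their values were seen. The lists covered pluripotency, hepatocyte factors and plasma proteins, liver enzymes and transporters, genes methylated in liver cancer, homeobox and Polycomb targets, germline and cancer-testis genes, blood, neural, imprinted, DNA modification and housekeeping genes. The 2 libraries of a line differed by about sampling noise at single sites (chi-square per site 1.08 in H1ES and 1.07 in HepG2, where sampling alone would give 1.06 and 1.07), but their total shares differed by 5.31 to 11.5 counting errors, so they were kept as separate libraries.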

Additional observations from a re-analysis of the deposited data

How the results depend on the processing

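HepG2 kept the higher unmethylated share and the lower 5mC and 5hmC shares in every alternative run. The difference in unmethylated share was 29.7 points at 10 tags, 31.6 at 20 tags, 33.3 as a mean over sites and 34.1 over all autosomal sites; that in 5mC was -28.5, -31.3, -32.0 and -32.7, and that in 5hmC -1.18 at 10 tags and -0.297 at 20 tags. At gene starts the unmethylated difference was 15 within 500 bp, 22.6 within 2000 bp and 31.1 at 10 tags, and that in 5hmC -1.73, -1.84 and -1.31. At 10 tags the unmethylated difference was 18.8 in gene bodies and 40.8 between genes, where that in 5hmC was -1.15. Sites methylated in H1ES and unmethylated in HepG2 numbered 12139 at a threshold of 90% and 1060 at 10 tags, and the opposite 70 and 8. State counts stayed within 1.5 times with any library left out. Shares moved by no more than 1 SD, which 2 libraries per line give for any data, so nothing about their stability follows from it.

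Counts of called sites, higher and lower, were 173636 and 2444 at 3 tags, 3088 and 44 at 10 tags, and 86 and 0 at 20 tags, where 86 of 115 sites had an unadjusted edgeR p under 0.05. Limma gave 1574 lower. Relative to the odds of each library they were 900 and 1897. DESeq2 gave 0 and 0 by the Wald and by the likelihood ratio test, with 20697 and 12301 sites at an unadjusted p under 0.05, and edgeR without robust estimation 0 and 0, with a smallest adjusted p of 0.0588. Leaving out a library gave 39288 to 55889 and 294 to 694. Counts of gene starts were 914 and 110 at 5 tags, 27 and 1 at 20 tags, 67 and 5 within 500 bp, 832 and 56 within 2000 bp, 1421 and 267 with all CCGG sites, 180 and 64 relative to library odds, 156 and 9 with DESeq2 and 160 and 9 with its likelihood ratio test, and 133 to 255 and 9 to 20 with a library left out. Fewer sites or fewer tags enter under several of these settings; for the tools the cause was not tested. IDH1, not called, changed sign relative to library odds (-0.38 in log2 odds) and without HepG2 library 1 (-0.36), and was 4.17 without HepG2 library 2.

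With the replicate number as a block, 44927 sites were higher and 397 lower, and 261 and 20 gene starts. Over single sites, samples of the same number did not deviate together (correlation 0.0057). That value cannot exclude a pairing, since libraries of a line differed by about sampling noise at single sites. In total shares, library 1 was above library 2 in unmethylated tags and below it in 5mC in both lines, while 5hmC had opposite orders. The labels do not say that a number marks a shared batch, so the numbers were not treated as pairs. Of the 23 named gene starts called at 10 tags, 17 stayed called whichever library was left out. At the depth of these libraries, edgeR recovered 0.65% of 4-fold changes at single sites, simulated with no spread between libraries of a line.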

Other observations

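The 5hmC of H1ES, as assigned by column order, differed by the state of the site in HepG2. The meaning of this column is unsettled, which holds for all 5hmC values in this section. Among sites methylated in H1ES, 5hmC made up 1.36% and 1.21% of H1ES tags where HepG2 was methylated, 1.66% and 1.52% where it was mixed, and 1.79% and 1.58% where it was unmethylated. At gene starts the values were 2.21% and 1.92%, 2.44% and 2.77%, and 2.80% and 2.89%. In gene bodies they were 1.36% and 1.21%, 1.84% and 1.66%, and 1.89% and 1.63%, so the mixed and unmethylated classes overlapped and had opposite orders in the 2 libraries. Sites mixed in H1ES and methylated in HepG2 had 5.80% and 6.29% in H1ES and 0.447% and 0.518% in HepG2 (1142 sites).

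In both H1ES libraries, 441 sites had at least 20% 5hmC tags, against 1 site in both HepG2 libraries. A single tag meets this threshold at a site of 5 tags. Taken alone, the H1ES libraries had 2998 and 3867 such sites, and the HepG2 libraries 233 and 394. The 5hmC share of a site correlated weakly between libraries, with r = 0.196 in H1ES and 0.024 in HepG2. No 5hmC tag was found in either H1ES library at 79.2% of sites. Among the sites with most 5hmC tags were one in the body of RXRA, a retinoid receptor, with 7 of 21 and 3 of 11 tags in H1ES and none of 11 and 8 in HepG2, and one in the body of ITPR2, a calcium channel of the endoplasmic reticulum, with 6 of 10 and 2 of 5 against none of 9 and 9. Both were chosen after their values were seen.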
